A study of Homo sapiens with 9 samples.

Results

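The genes described are 10 parts and regulators of the mechanistic target of rapamycin (mTOR) kinase complexes, MTOR, RPTOR, RICTOR, MLST8, DEPTOR, AKT1S1, TSC1, TSC2, RHEB and RPS6KB1. They were chosen by name, as the pathway on which Rapamycin acts, and each was found once among the 31589 genes of the count tables. The values come from bulk RNA sequencing of spinal cord organoids (SCOs), 3D cultures that follow the developing human neural tube, grown from WTC, an established human induced pluripotent stem cell line. By the study's text the vehicle and VPA libraries came from 3 clones of that line that carry a SOX10 reporter. Several SCOs of a clone were pooled for RNA. The study also exposed SCOs of 3 clones to VPA+Rapamycin, and its legend for that sequencing refers back to the same design. Some of these clones also carry small insertions or deletions in the other SOX10 allele. All SCOs were labelled WT and as exposed for 96 h, and were sampled whole. The study's text gives a shorter time where it describes exposure to VPA, and the labels' value is used here. Vehicle libraries, titled FGF after the growth factor, were set against libraries exposed to valproic acid (VPA), an anti-seizure drug and histone deacetylase inhibitor, and to VPA+Rapamycin, with 3 libraries in each group. By the study's text vehicle meant FGF alone, and FGF was also given during exposure to VPA. No group received Rapamycin alone, so an effect of Rapamycin can be read only in the presence of VPA. The p-values therefore measure the spread between clones of 1 parental line, not between people. Which library came from which clone is not stated, and the main tests did not pair libraries by clone.

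The mTOR kinase works in a pair of complexes that share MLST8 and DEPTOR. In mTORC1 the scaffold RPTOR (raptor) brings substrates to the kinase and AKT1S1 (PRAS40) holds it back, whereas mTORC2 is built on RICTOR and phosphorylates AKT. TSC1 and TSC2 form a complex that switches off the small GTPase RHEB, the direct activator of mTORC1 at the lysosome, and RPS6KB1 (S6 kinase) carries the mTORC1 signal to the ribosome and to protein synthesis. Rapamycin binds the immunophilin FKBP1A (FKBP12), and the pair then binds MTOR and blocks mTORC1, with mTORC2 affected on longer exposure in some cells. These are relations between proteins and their activities, whereas the values here are levels of mRNA.

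The libraries held between 15290436 and 17417478 counts assigned to genes. Levels of markers are given as CPM, the counts of a gene scaled to the library total, on which 3 counts come to between 0.172 and 0.196 CPM. Markers of the labelled tissue were present. No marker of neural progenitors, neurons, neural crest, mesenchyme, pluripotent stem cells or spinal cord level HOX genes was at 0 in a whole group. A few reads are enough for that. The stem cell markers POU5F1, NANOG and ZFP42 had 0 to 14 counts in a library and were too low to be tested, whereas DPPA4 had 1517 to 3377. Levels of the markers moved with the exposure. The summed level of 6 neuron markers lay between 1244 and 2118 CPM in vehicle, between 1041 and 1128 CPM with VPA and between 1122 and 1173 CPM with VPA+Rapamycin, and 5 of the 6 were lower with VPA than in vehicle by the test used below. The summed level of 6 mesenchyme markers lay between 136 and 291 CPM in vehicle, between 556 and 711 CPM with VPA and between 243 and 368 CPM with VPA+Rapamycin, and 5 of the 6 were lower with VPA+Rapamycin than with VPA. The higher sum with VPA was carried by the collagen genes COL1A1 and COL1A2, the 2 of the 6 called higher than vehicle (1 by DESeq2). COL3A1 and PRRX1 had lower estimates, which rested on vehicle replicate 3. COL3A1 had 8, 11 and 85 counts in vehicle replicates 1 to 3, and 16 to 33 with VPA. PRRX1 had 0, 0 and 53 counts in vehicle, and 2 to 20 with VPA. Of 5 neural crest markers, 3 were lower with VPA than in vehicle (2 by DESeq2). SOX10 had 347, 248 and 230 counts in vehicle, 5, 10 and 9 with VPA, and 8, 37 and 63 with VPA+Rapamycin. Of 4 HOX genes, 2 were lower with VPA than in vehicle, as was DPPA4, and of 5 neural progenitor markers 1 was higher. In whole organoids, fewer cells of a type and less RNA per cell cannot be told apart, and the part of cell composition in the changes below was not tested.

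Per length of gene, in CPM per kb of annotated exon, the level in vehicle differed widely among the 10 genes. That length covers all annotated exons of a gene, from 2622 bases for DEPTOR to 19626 for TSC2. It is not the length of the mRNA present, so the order between genes depends in part on the annotation. RHEB was the highest at 23.4 ± 1.56 CPM per kb (SD, n = 3), followed by MLST8 at 14.6 ± 3.07, MTOR at 10.1 ± 0.943 and TSC2 at 8.46 ± 0.988. RPS6KB1 stood at 6.74 ± 0.431, RICTOR at 6.50 ± 1.55, AKT1S1 at 5.61 ± 1.33, TSC1 at 4.46 ± 0.0286 and RPTOR at 3.80 ± 0.192 CPM per kb. DEPTOR was the lowest at 0.735 ± 0.237 CPM per kb, and its 21 to 81 counts in a library made it the least precisely measured of the 10. In this order the vehicle libraries overlapped between MTOR and TSC2, between RPS6KB1 and RICTOR, between RICTOR and AKT1S1 and between AKT1S1 and TSC1, and the other neighbours did not overlap. The scaffold of mTORC1, RPTOR, was measured at a lower level per length than the scaffold of mTORC2, RICTOR, in vehicle. It was at 4.05 ± 0.571 against 3.62 ± 0.215 CPM per kb with VPA and at 3.78 ± 0.587 against 4.79 ± 0.637 with VPA+Rapamycin. Libraries of RPTOR and RICTOR overlapped in both exposed groups, so no order between them is read there.

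**Figure D1:**
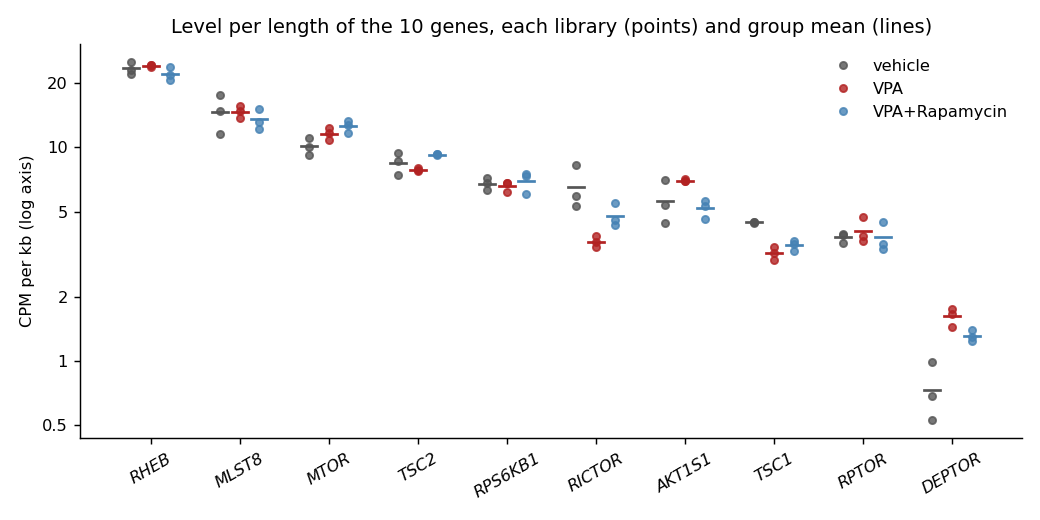
Level per length (CPM per kb, log axis) of the 10 mTOR complex genes in each library, with points for libraries and short lines for the mean of 3 in vehicle (grey), VPA (red) and VPA+Rapamycin (blue). The genes run from RHEB at 23.4 to DEPTOR at 0.735 CPM per kb in vehicle, and DEPTOR, RICTOR and TSC1 show the widest steps between vehicle and VPA.

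Differences between groups were tested with edgeR's quasi-likelihood F test over all genes that passed a filter on low counts, and a gene was called where its Benjamini-Hochberg adjusted p was at most 0.05. All 10 genes passed the filter in each comparison. With VPA against vehicle, 1 of the 10 was higher and 2 were lower, beside 32.1% of all 17360 genes tested that were called, 16.4% higher and 15.7% lower. The count of 3 of 10 was near that background, and the median log2 fold change of the 10 was 0.01, beside -0.00298 over all genes. For 3 of the 10 genes (RICTOR, TSC1 and DEPTOR) no library of either group fell within the range of the other, as did 47.5% of all genes.

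RICTOR (ENSG00000164327, minus strand of chromosome 5, 38937919 to 39074408, GRCh38), the defining subunit of mTORC2, was measured at 1194, 1322 and 1850 normalised counts (counts scaled between libraries by TMM) in the vehicle libraries, at 861, 765 and 805 with VPA, and at 964, 1020 and 1234 with VPA+Rapamycin. All VPA libraries were below all libraries of the other groups, and vehicle and VPA+Rapamycin overlapped. RICTOR fell with VPA to 0.552 times the vehicle level (log2 fold change -0.86, SE 0.16; edgeR adjusted p = 0.00226). The vehicle library that was highest for RICTOR, replicate 3, was also the highest for neuron markers, whose sum was 20554, 27327 and 34994 normalised counts in vehicle replicates 1 to 3. Without that library the log2 fold change of RICTOR was -0.64 (edgeR adjusted p = 0.000188). The neuron marker sum was 18641, 17197 and 18143 with VPA, and 18690, 18538 and 19372 with VPA+Rapamycin. Those 2 groups overlapped in the sum, whereas RICTOR did not overlap between them. The part of neuron content in the level of RICTOR was not tested.

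The sequence just upstream of RICTOR is shown because of the 7 genes with a promoter window it alone held the EGR motif searched. It holds 189 bases of RefSeq promoter sequence (GRCh38.p14, chr5:39074409-39074597, minus strand), outside the annotated gene, with the motif GCGTGGGCG in capitals.
RICTOR upstream: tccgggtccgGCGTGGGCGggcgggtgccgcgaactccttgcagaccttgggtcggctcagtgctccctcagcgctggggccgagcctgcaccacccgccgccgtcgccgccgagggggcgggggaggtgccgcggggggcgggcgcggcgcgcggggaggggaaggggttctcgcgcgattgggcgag
The stretch is 79.4% G or C with 29 CpG dinucleotides. Promoter windows of 300 bases, from 250 before to 50 after a RefSeq start, were given for 7 of the 10 genes (MTOR, RPTOR, RICTOR, TSC1, TSC2, RHEB and RPS6KB1), with a pair of windows for TSC2. Searched on both strands, GCGTGGGCG stood in 0.795% of all 35116 windows and lay at positions -188 to -180 from the start of RICTOR. The AP-1 motif TGANTCA, held by 7.71% of all windows, and the CRE motif TGACGTCA, held by 1.85%, were in none of the windows of the 7 genes, which says only that these letters are not in those windows. The E-box CACGTG, held by 7.26% of all windows and the core of the site of TFEB, MYC and USF proteins, was found before one of the RefSeq starts of TSC2, inside the gene as annotated in GENCODE, and in no window of the other genes. That match, in capitals, is shown in 30 bases (GRCh38.p14, chr16:2047859-2047888, plus strand), which lie in annotated exon sequence of TSC2 and share 8 bases with an exon of a gene on the opposite strand.
TSC2 E-box: atgcggccccgtCACGTGatgcaaggatcg
The GC content of the 8 windows ran from 48.0% to 74.7%, with a median of 62.0% beside 58.7% over all windows.

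TSC1 (ENSG00000165699, minus strand of chromosome 9, 132891348 to 132946874), or hamartin, which keeps TSC2 stable, was at 1288, 1301 and 1303 normalised counts in vehicle. It was at 995, 859 and 926 with VPA and at 1022, 949 and 1061 with VPA+Rapamycin. Vehicle libraries were above all others. TSC1 fell with VPA to 0.709 times the vehicle level (log2 fold change -0.50, SE 0.11; edgeR adjusted p = 0.00511), a call kept in all 11 alternative fits, with adjusted p between 0.000586 and 0.0452. The fall of RICTOR was called in all 11 as well.

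DEPTOR (ENSG00000155792, chromosome 8), which binds MTOR and inhibits both complexes, was at 43, 23 and 30 normalised counts in vehicle, at 72, 62 and 76 with VPA and at 56, 54 and 60 with VPA+Rapamycin. The groups did not overlap, with vehicle lowest and VPA highest. DEPTOR rose 2.17-fold with VPA (log2 fold change 1.12, SE 0.31; edgeR adjusted p = 0.0177). The call ended in 3 of the 11 alternative fits, without vehicle replicate 2, VPA replicate 1 or VPA replicate 3, with an adjusted p of up to 0.0678. The VPA libraries, highest for DEPTOR, were also highest for summed mesenchyme markers (mostly COL1A1 and COL1A2). The sums were 9187 to 11743 normalised counts with VPA, 2250 to 4809 in vehicle and 4012 to 6081 with VPA+Rapamycin. Below the VPA libraries the 2 orders differed. Vehicle replicate 1 had a higher sum (4809) than VPA+Rapamycin replicates 2 and 3 (4012 and 4407), but less DEPTOR (43 against 54 and 60).

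The other 7 genes were not called with VPA against vehicle. MTOR itself (ENSG00000198793, minus strand of chromosome 1, 11106535 to 11262507) was at 1998, 2219 and 1844 normalised counts in vehicle, at 2166, 2331 and 2469 with VPA and at 2651, 2346 and 2554 with VPA+Rapamycin. Vehicle and VPA overlapped, and the log2 difference was 0.19 with a 95% interval from -0.02 to 0.40. RPTOR (ENSG00000141564, plus strand of chromosome 17, 80544819 to 80966371) was at 667, 664 and 609 normalised counts in vehicle, at 617, 651 and 800 with VPA and at 757, 603 and 571 with VPA+Rapamycin. All 3 groups of RPTOR overlapped, and the log2 difference between VPA and vehicle was 0.08, with an interval from -0.17 to 0.34.

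MLST8 (ENSG00000167965, plus strand of chromosome 16, 2204248 to 2209416), the small beta-propeller subunit of both complexes, was at 1260, 1052 and 821 normalised counts in vehicle. Its VPA libraries, at 984, 1052 and 1109, and its VPA+Rapamycin libraries, at 942, 1077 and 874, lay within the vehicle range, and the log2 difference between VPA and vehicle was -0.01 (95% interval -0.29 to 0.28). RHEB (ENSG00000106615, minus strand of chromosome 7, 151466012 to 151520120) was at 1348, 1465 and 1286 in vehicle, at 1412, 1381 and 1422 with VPA and at 1388, 1201 and 1275 with VPA+Rapamycin. The groups overlapped, and the log2 difference of RHEB between VPA and vehicle was 0.03 (95% interval -0.17 to 0.23). RPS6KB1 (ENSG00000108443, plus strand of chromosome 17, 59893046 to 59950564) was at 798, 861 and 907 in vehicle, at 862, 860 and 785 with VPA and at 952, 771 and 930 with VPA+Rapamycin. It overlapped between all groups too, with a log2 difference of -0.04 (interval -0.27 to 0.18) between VPA and vehicle.

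**Figure D2:**
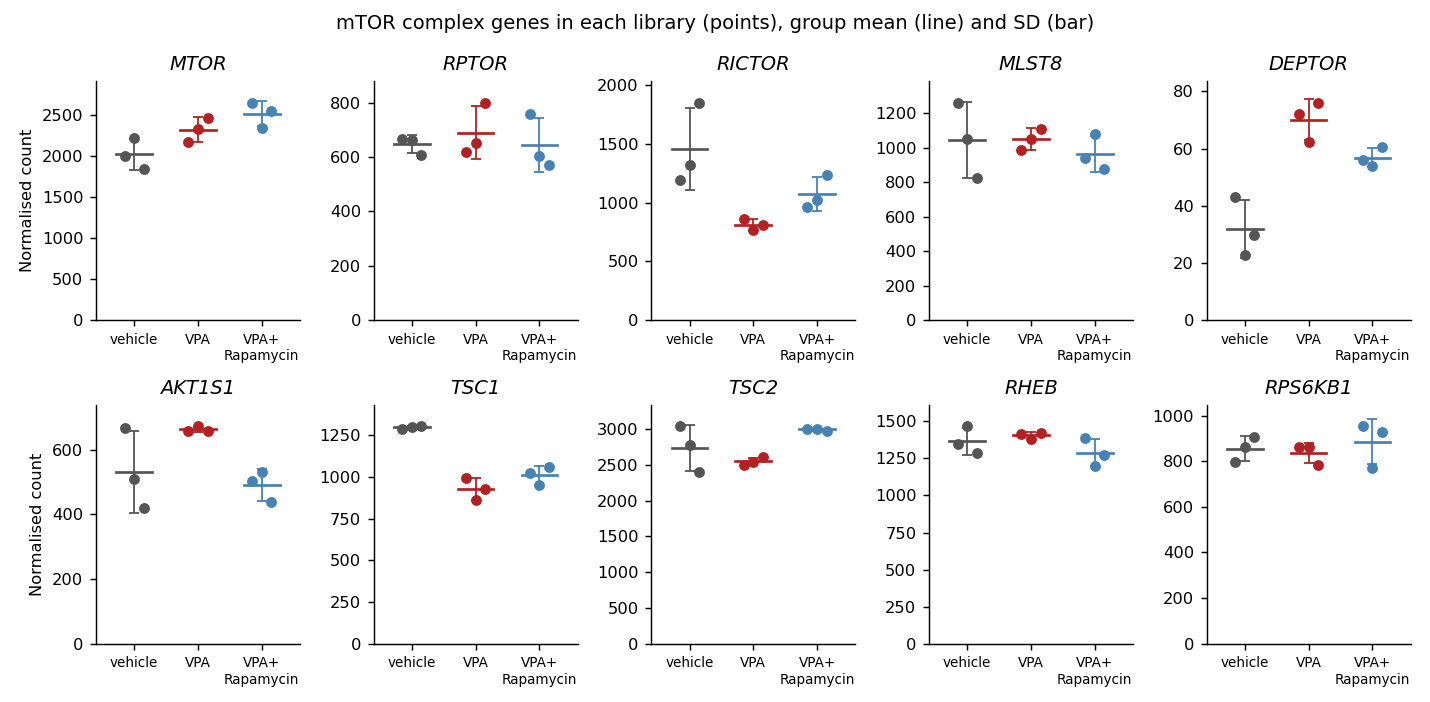
Normalised counts of the 10 genes in each library (points), with the mean of 3 (line) and SD (bar) for vehicle (grey), VPA (red) and VPA+Rapamycin (blue), on axes that start at 0. RICTOR is lowest with VPA (765 to 861 normalised counts), TSC1 is highest in vehicle (1288 to 1303), and RPTOR, MLST8, RHEB and RPS6KB1 overlap between all groups.

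With VPA+Rapamycin against VPA, 2 of the 10 genes were higher and 1 was lower, beside 6.74% of all 17317 genes tested that were called, 3.01% higher and 3.73% lower. The median log2 fold change of the 10 was -0.01, beside 0.00391 over all genes. In 4 of the 10 genes (RICTOR, TSC2, AKT1S1 and DEPTOR) the 2 groups did not overlap, as in 25.5% of all genes. RICTOR rose 1.32-fold from its VPA level (log2 fold change 0.41, SE 0.10; edgeR adjusted p = 0.0158). The log2 difference of RICTOR from vehicle that then remained was -0.45 (SE 0.17; edgeR adjusted p = 0.0851).

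TSC2 (ENSG00000103197, plus strand of chromosome 16, 2047465 to 2089487), tuberin, the GTPase-activating subunit of the TSC complex, was at 3039, 2785 and 2403 normalised counts in vehicle, at 2501, 2543 and 2605 with VPA and at 3006, 3007 and 2978 with VPA+Rapamycin. The vehicle libraries spanned the range of both other groups. TSC2 was 1.18-fold higher with VPA+Rapamycin than with VPA (log2 fold change 0.24, SE 0.07; edgeR adjusted p = 0.0456). AKT1S1 (ENSG00000204673, minus strand of chromosome 19, 49869033 to 49878459) was at 668, 508 and 419 normalised counts in vehicle, at 659, 672 and 656 with VPA and at 504, 532 and 437 with VPA+Rapamycin. The VPA libraries were above all VPA+Rapamycin libraries, and vehicle replicate 1 was as high as those with VPA. AKT1S1 fell with VPA+Rapamycin to 0.744 times its VPA level (log2 fold change -0.43, SE 0.10; edgeR adjusted p = 0.0142). For VPA against vehicle its log2 difference was 0.31 (SE 0.16; edgeR adjusted p = 0.16), and 0.0075 was the adjusted p without vehicle replicate 1.

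The calls between VPA+Rapamycin and VPA rested on the spread of 6 libraries. When all 9 libraries shared 1 estimate of spread, none of the 10 genes was called in this comparison, with edgeR adjusted p of 0.266 for RICTOR, 0.22 for AKT1S1 and 0.30 for TSC2, and 44 genes were called higher and 69 lower of all 17973, while the log2 fold changes of the 3 genes kept their direction. The call of TSC2 was lost in 9 of 11 alternative fits, among them those without any one of the 6 libraries, with an adjusted p of up to 0.30, and the fit with the replicate number as a block (0.104). RICTOR was not called without VPA replicate 2 (edgeR adjusted p = 0.101), VPA replicate 3 (0.0534) or VPA+Rapamycin replicate 3 (0.116). AKT1S1 was not called without VPA replicate 2 (edgeR adjusted p = 0.0676) or VPA+Rapamycin replicate 3 (0.0767). Counts of AKT1S1 and TSC2 also carry a limit of annotation. AKT1S1, with a mean of 564 counts, shares 392 of its 5737 exon bases with TBC1D17 on the other strand (683 counts). TSC2, with a mean of 2764 counts, shares 778 of 19626 exon bases with PKD1 on the other strand (3356 counts). The use of strand in counting is not given in the sources used here, so reads in the shared bases could have been given to either gene or to none.

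With VPA+Rapamycin against vehicle, 1 of the 10 genes was lower, beside 19% of all 17383 genes tested that were called, 9.81% higher and 9.22% lower. That gene was TSC1, at 0.774 times its vehicle level (log2 fold change -0.37, SE 0.10; edgeR adjusted p = 0.0309). The call of TSC1 ended with no filter on low counts (edgeR adjusted p = 0.0526), without vehicle replicate 2 (0.107) and without VPA+Rapamycin replicates 1, 2 or 3 (0.114, 0.145 and 0.0912). No member was called higher by the main edgeR fit or by DESeq2, and 2 (MTOR and DEPTOR) were higher at an unadjusted edgeR p under 0.05 in the main fit. MTOR was above vehicle in 3 of 3 libraries, with a log2 fold change of 0.31 (SE 0.11; edgeR adjusted p = 0.0728), and DEPTOR likewise, with 0.82 (SE 0.32; edgeR adjusted p = 0.0932). MTOR, DEPTOR and TSC1 were the 3 of 10 genes without overlap between these groups, beside 38.5% of all genes. The median log2 fold change of the 10 was -0.06, beside -0.000873 over all genes. In the fit of all 9 libraries, RICTOR (adjusted p = 0.0402), MTOR (0.0324) and DEPTOR (0.0457) were called in this comparison as well as TSC1, and RICTOR was called in 5 of 11 alternative fits in all, also by DESeq2 (adjusted p = 0.0479), with no filter on low counts (0.0209), with the replicate number as a block (0.0164) and without vehicle replicate 1 (0.0179). DEPTOR was called without vehicle replicate 1 too (edgeR adjusted p = 0.0362). The comparisons share libraries, so the values in the 3 are not independent of each other.

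**Figure D3:**
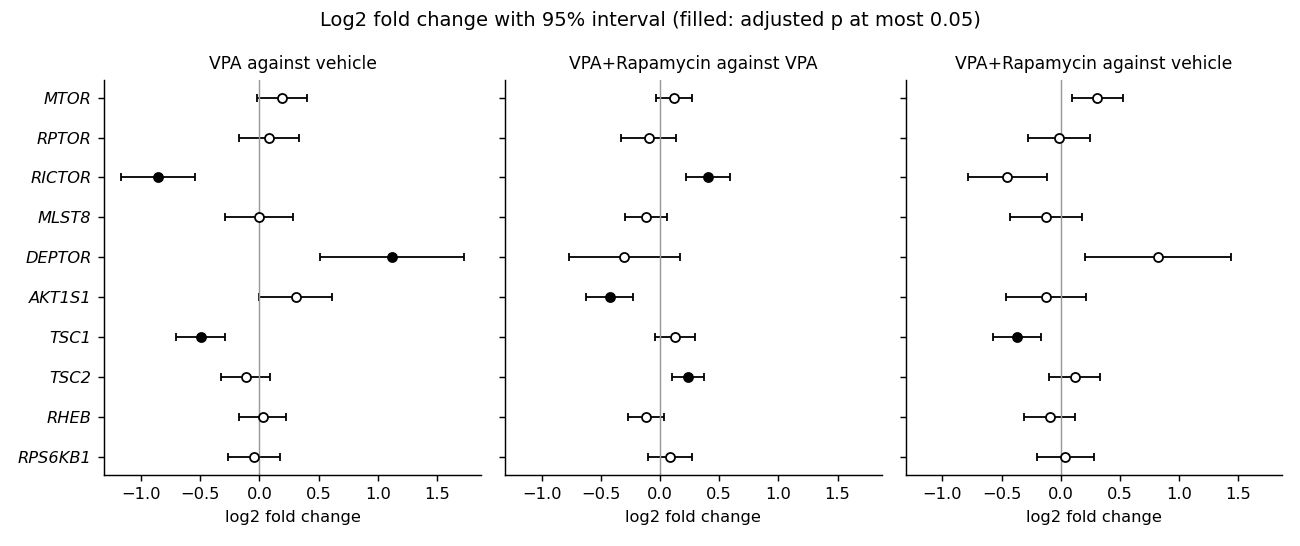
Log2 fold change of the 10 genes (points) with the 95% interval from the standard error (bars) in the 3 comparisons, 3 libraries against 3 in each, filled where the edgeR adjusted p is at most 0.05. RICTOR stands at -0.86 for VPA against vehicle and at 0.41 for VPA+Rapamycin against VPA, and the interval of DEPTOR is the widest.

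Ratios of 2 genes within a library do not depend on scaling between libraries. The log2 ratio of RPTOR to RICTOR, counts per length, was -0.44, -0.60 and -1.21 in vehicle, -0.09, 0.16 and 0.39 with VPA, and 0.05, -0.36 and -0.72 with VPA+Rapamycin. The VPA libraries were above all vehicle libraries, by 0.90 on average, and VPA+Rapamycin overlapped with both. The log2 ratio of TSC1 to TSC2 was -1.08, -0.94 and -0.73 in vehicle, -1.17, -1.41 and -1.33 with VPA, and -1.40, -1.51 and -1.33 with VPA+Rapamycin. It was lower than vehicle in all libraries of both exposed groups, by 0.39 and 0.50 on average (differences of -0.39 and -0.50). The log2 ratio of DEPTOR to MTOR was -3.33, -4.39 and -3.75 in vehicle, -2.70, -3.02 and -2.81 with VPA, and -3.36, -3.24 and -3.19 with VPA+Rapamycin. The VPA libraries were the highest, by 0.98 over vehicle and by 0.42 over VPA+Rapamycin (difference of VPA+Rapamycin from VPA, -0.42). With 3 libraries against 3 a two-sided exact permutation test cannot go below 0.1, and 5 of the 9 comparisons of ratios reached that p (adjusted over the 9, 0.18), whereas the other 4 had exact permutation p between 0.2 and 0.5.

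**Figure D4:**
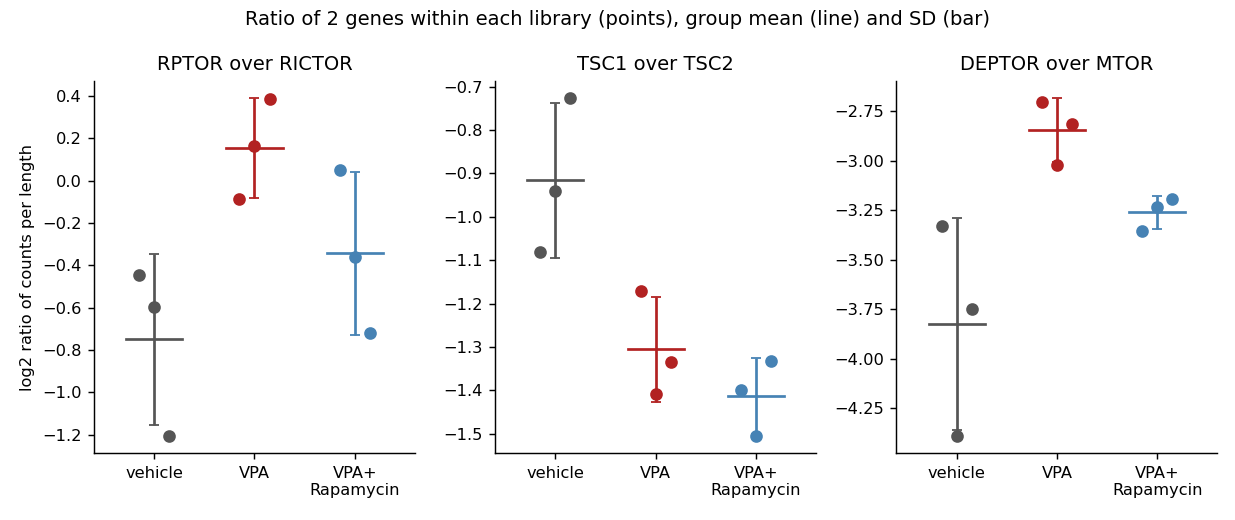
Log2 ratio of 2 genes within each library (points, counts per length), with the mean of 3 (line) and SD (bar), for RPTOR over RICTOR, TSC1 over TSC2 and DEPTOR over MTOR in vehicle (grey), VPA (red) and VPA+Rapamycin (blue). RPTOR over RICTOR rises above the vehicle range with VPA, and TSC1 over TSC2 is below the vehicle range in both exposed groups.

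Over the 9 libraries, the genes whose log2 levels followed those of the called members most closely, among 17968 genes, were named with Pearson's r as a description. For RICTOR they were ZNF518A (r = 0.990), BRWD1 (0.989) and ZNF655 (0.988), and for TSC1 they were ZNF785 (0.994), RNF169 (0.989) and the pseudogene GTF2IP1 (0.985). For DEPTOR they were BLVRB (0.983), TJP3 (0.982) and GMPR (0.981). For AKT1S1 they were FTH1 (0.973), SZRD1 (0.968) and IDH2 (0.958), and for TSC2 they were PPOX (0.969), WDR97 (0.968) and PPT2-EGFL8 (0.952). These points share libraries and treatment groups, so a high r follows wherever both genes differ between groups in the same way.

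The rest of the pathway was read in 80 further genes in 6 lists. With VPA against vehicle, 19 were higher and 11 lower of 78 that passed the filter (38.5%, beside the 32.1% of all genes), with a median log2 fold change of 0.05. With VPA+Rapamycin against VPA, 4 were higher and 3 lower of 78 (8.97%, beside 6.74%), with a median of -0.06. With VPA+Rapamycin against vehicle, 7 were higher and 5 lower of 77 (15.6%, beside 19%), with a median of 0.000752.

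Among 9 partners and assembly factors of the complexes, 3 rose with VPA (33.3%, beside 32.1% of all genes) and the median log2 fold change was 0.27. PRR5 (protor-1), which binds RICTOR in mTORC2, was at 171, 133 and 133 normalised counts in vehicle, at 311, 284 and 281 with VPA and at 207, 246 and 222 with VPA+Rapamycin. PRR5 rose by 0.99 on the log2 scale with VPA (SE 0.17; edgeR adjusted p = 0.00132), the opposite direction to RICTOR, and was still higher than vehicle with VPA+Rapamycin (0.62, SE 0.18; adjusted p = 0.0338). TBC1D7, the third subunit of the TSC complex, rose by 0.64 (SE 0.13; adjusted p = 0.00307), whereas TSC1 fell. TTI2, of the chaperone that assembles mTOR and related kinases, rose by 0.54 (SE 0.18; adjusted p = 0.0403).

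Of 13 genes of the lysosomal scaffold and the Rag GTPases, which bring mTORC1 to RHEB, 5 rose and 1 fell with VPA (46.2%, beside 32.1% of all genes, with a list median of 0.11). The Rag GTPase RRAGD rose by 0.57 (SE 0.11; edgeR adjusted p = 0.00342), and the Ragulator subunits LAMTOR2 and LAMTOR1 rose by 0.56 and 0.35 (adjusted p = 0.0321 and 0.0342). FNIP1, a partner of folliculin, fell (log2 fold change -0.53, SE 0.16; adjusted p = 0.0277). SLC38A9, the lysosomal arginine sensor, was at 276, 398 and 340 normalised counts in vehicle, at 473, 478 and 445 with VPA and at 593, 510 and 677 with VPA+Rapamycin, without overlap between the groups. It was higher than vehicle by 0.80 with VPA+Rapamycin (SE 0.17; edgeR adjusted p = 0.00884). RRAGB was the only gene of this list called between VPA+Rapamycin and VPA (0.45 higher, SE 0.12; adjusted p = 0.0321).

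Of 18 genes of amino acid sensing, 2 rose and 3 fell with VPA (27.8%, beside 32.1% of all genes, with a list median of -0.01). The subunits of GATOR1, the complex that turns Rag GTPases off, moved apart, as DEPDC5 rose by 0.66 (SE 0.17; edgeR adjusted p = 0.0113) and NPRL3 fell (log2 fold change -0.45, SE 0.10; adjusted p = 0.00766). The sestrins, stress-induced inhibitors of mTORC1 of which SESN1 and SESN2 sense leucine, moved apart too. SESN1 fell with VPA (log2 fold change -0.68, SE 0.13; adjusted p = 0.00298), from 708 to 926 normalised counts in vehicle to 487 to 532, and with VPA+Rapamycin it was at 468 to 502. SESN2 rose by 0.56 with VPA (SE 0.16; adjusted p = 0.0201) and fell with VPA+Rapamycin against VPA (log2 fold change -0.42, SE 0.11; adjusted p = 0.0346). SESN3, at 5359 to 5713 normalised counts with VPA and 3574 to 4125 with VPA+Rapamycin, had the smallest adjusted p of the 80 genes between those groups (log2 fold change -0.53, SE 0.07; adjusted p = 0.000298).

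Of 20 genes of growth factor and energy input, 19 passed the filter, and 1 rose and 4 fell with VPA (26.3%, beside 32.1% of all genes, with a list median of -0.15). The AMPK subunits PRKAB2 and PRKAA2 fell with VPA (log2 fold changes -0.47 and -0.44; adjusted p = 0.021 and 0.0228). DDIT4L, a relative of the mTORC1 inhibitor REDD1, rose by 1.86 (SE 0.48; adjusted p = 0.0133) from 5 to 20 normalised counts in vehicle to 34 to 63, a change set by few reads.

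Of 14 downstream targets that passed the filter, 5 rose and 3 fell with VPA (57.1% called, beside 32.1% of all genes, with a list median of 0.08). TFEB, the lysosomal transcription factor that mTORC1 keeps in the cytoplasm, was at 77, 51 and 40 normalised counts in vehicle, at 194, 186 and 203 with VPA and at 163, 192 and 131 with VPA+Rapamycin. TFEB rose by 1.78 with VPA (SE 0.25; edgeR adjusted p = 0.000436) and was higher than vehicle by 1.52 with VPA+Rapamycin (SE 0.27; adjusted p = 0.00428). EIF4EBP1 (4E-BP1), a translation repressor that mTORC1 inhibits, rose by 1.28 with VPA (SE 0.27; adjusted p = 0.00486) and was higher than vehicle by 0.94 with VPA+Rapamycin (SE 0.27; adjusted p = 0.034). LPIN1 (lipin-1), a phosphatidate phosphatase, fell with VPA (log2 fold change -0.86, SE 0.13; adjusted p = 0.0007), as did PDCD4, an inhibitor of translation that S6 kinase marks for degradation (-0.50, SE 0.10; adjusted p = 0.00425). ULK1, the kinase that starts autophagy, was at 2186, 1919 and 1604 normalised counts in vehicle, at 1189, 1244 and 1371 with VPA and at 1603, 1812 and 1726 with VPA+Rapamycin. ULK1 fell with VPA (log2 fold change -0.60, SE 0.13; adjusted p = 0.0046) and rose by 0.44 with VPA+Rapamycin against VPA (SE 0.08; adjusted p = 0.00288), and its partner ATG13 rose by 0.26 (SE 0.08; adjusted p = 0.0497) in the latter comparison.

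Of 5 immunophilins of the FKBP family, 3 rose with VPA (60%, beside 32.1% of all genes, with a list median of 0.41). FKBP1A, the protein through which Rapamycin binds MTOR, was at 1888, 1820 and 1965 normalised counts in vehicle and at 2493, 2689 and 2390 with VPA. FKBP1A rose by 0.41 (SE 0.10; edgeR adjusted p = 0.00954), and its log2 difference between VPA+Rapamycin and VPA was -0.10 (95% interval -0.25 to 0.04). FKBP4 and FKBP5, co-chaperones of steroid receptors, rose by 0.74 and 0.67 with VPA (adjusted p = 0.000691 and 0.00287). FKBP5 fell with VPA+Rapamycin against VPA (log2 fold change -0.39, SE 0.08; adjusted p = 0.00529), and FKBP4 was higher than vehicle by 0.77 with VPA+Rapamycin (adjusted p = 0.0021).

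**Figure D5:**
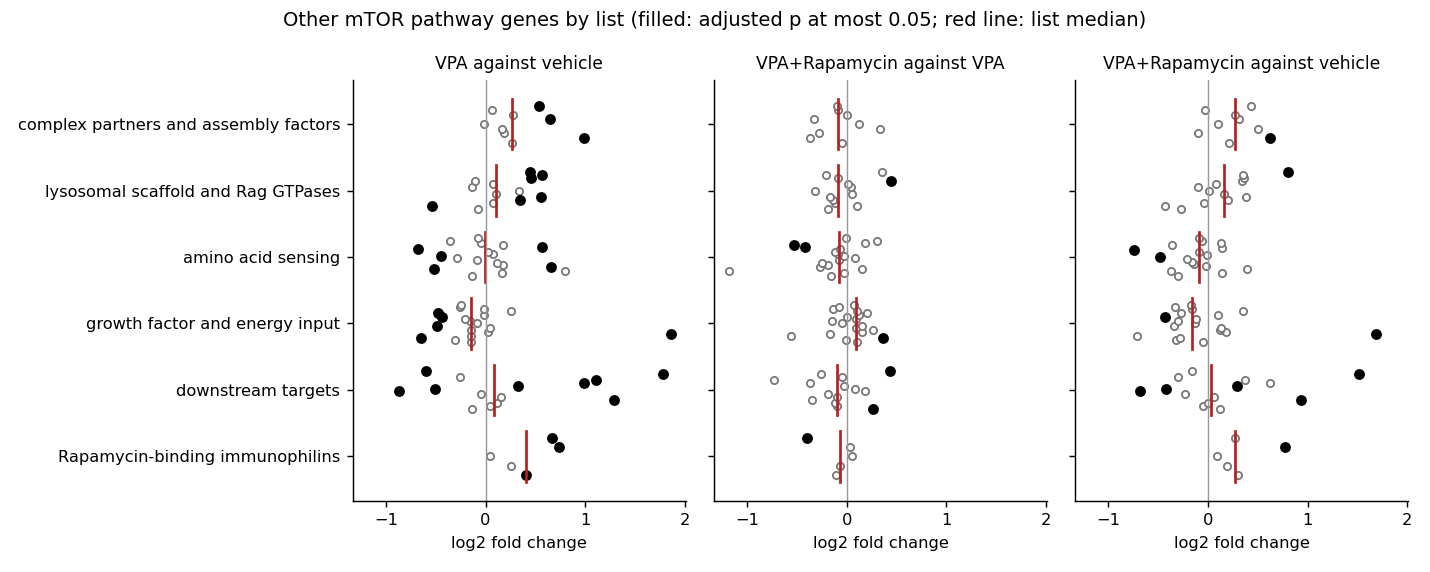
Log2 fold change of the 80 further pathway genes by list in the 3 comparisons, with a point for each gene that passed the filter, filled where the edgeR adjusted p is at most 0.05, and a red line at the list median. With VPA against vehicle 30 of 78 genes are filled, with VPA+Rapamycin against VPA 7 of 78, and the median of the immunophilins for VPA against vehicle is 0.41.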

How the data were processed

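Poly-A RNA libraries of spinal cord organoids (kit NEBNext Ultra) were sequenced, and reads were aligned with HISAT2 2.0.5 and counted per gene with featureCounts 1.5.0-p3, per the labels. The genome build is not given in the sources used here, but the coordinates of all 10 genes matched GENCODE 29 on GRCh38. The authors deposited raw counts per gene in 3 tables, each for a pair of groups, with FPKM, scaled counts and their own fold changes and p-values, none of which were used. The deposited gene length gave CPM per kb. Each pair was tested from its own counts with edgeR 4.0.16 (R 4.3.3; TMM scaling, filterByExpr, quasi-likelihood F test, Benjamini-Hochberg adjustment over all genes tested, threshold 0.05). Normalised counts are counts scaled by TMM over all 9 libraries to the mean library size. The 11 alternatives in each comparison were size factors, DESeq2 1.42.0, no filter, all 9 libraries in 1 fit, the replicate number as a block and leaving out each library. Pairs of genes were compared with exact permutation tests. Intervals are 1.96 SE on either side. All libraries entered every fit of their groups. The scripts were tested on simulated data. The 10 genes and the 6 lists were chosen with earlier results of these data known. Named list genes were the 4 with the smallest adjusted p among those called in each list and comparison, and FKBP1A, apart from a result not reported here. PIK3R2 and EIF4EBP3 passed no filter, and CASTOR1 did not pass it for VPA+Rapamycin against vehicle.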

Additional observations from a re-analysis of the deposited data

How the results depend on the processing

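Of 330 alternative values for the 10 genes, 280 kept both direction and call, 24 lost a call, 9 gained one and 17 changed sign. None of the last was in a comparison in which that gene was called. With all 9 libraries in 1 fit, 0 of the 10 genes and 0 of the 80 list genes were called for VPA+Rapamycin against VPA, and 4 of the 10 genes for VPA+Rapamycin against vehicle. With no filter on low counts 11 list genes were called for VPA+Rapamycin against VPA, and DESeq2 called 2 of the 10 genes for VPA+Rapamycin against vehicle. MLST8, at -0.01 on the log2 scale for VPA against vehicle, was at 0.0065 with no filter.

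Leaving out a library moved the number of the 10 genes called from 0 to 2 for VPA+Rapamycin against VPA and from 0 to 3 for VPA+Rapamycin against vehicle. The list genes called ran from 16 to 35 for VPA against vehicle (lowest without VPA replicate 2), from 4 to 7 for VPA+Rapamycin against VPA (4 without VPA replicate 2, VPA replicate 3 or VPA+Rapamycin replicate 3) and from 4 to 18 for VPA+Rapamycin against vehicle (lowest without VPA+Rapamycin replicate 1). Among genes not called, log2 fold changes for VPA against vehicle ran from -0.0367 to 0.164 (RPTOR), -0.146 to 0.153 (MLST8), -0.0065 to 0.08 (RHEB) and -0.092 to 0.0062 (RPS6KB1). For VPA+Rapamycin against VPA RPTOR ran from -0.231 to 0.0251. For VPA+Rapamycin against vehicle the ranges were -0.146 to 0.0687 (RPTOR), -0.268 to 0.0301 (MLST8), -0.267 to 0.0716 (AKT1S1) and -0.0146 to 0.132 (RPS6KB1). The cause of these shifts was not tested; fits with a library left out had fewer samples. Ratios of 2 genes kept their direction in each alternative.

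Groups share replicate numbers and sample prefixes, which may mark the 3 clones that the study describes, but neither the labels nor the study's text ties a number to a clone. Deviations of same-numbered libraries from their group means correlated at between -0.0572 and 0.147. For VPA+Rapamycin against vehicle they were all positive (0.0966, 0.0567 and 0.147), and 5 of the 6 libraries matched best with their own number. That number was 2 for VPA against vehicle and 3 for VPA+Rapamycin against VPA. Whether the libraries are paired by number was therefore not settled by these weak correlations. With the replicate number as a block, 2 of the 10 genes were called for VPA+Rapamycin against vehicle, the added gene was RICTOR (adjusted p = 0.0164), TSC2 was not called for VPA+Rapamycin against VPA (adjusted p = 0.104), no other call among the 10 genes changed, and MLST8 was at 0.013 for VPA against vehicle. The 21 to 81 counts of DEPTOR limit the precision of that gene most, and intervals cover only the spread between these libraries.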
